A study of Mus musculus with 4 samples.

Results

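The genes described here are 9 markers of the epicardium and of mesothelium: Wt1, Tbx18, Tcf21, Upk3b, Upk1b, Msln, Krt8, Krt18 and Krt19. They were taken from the array by gene name. All 9 had a probe among the 22221 genes named on the array, and all 9 were among the 16659 genes with a probe well above background on at least 1 array. RNA came from cardiac mesenchymal progenitors (CMPs), Sca-1+ cells of adult C57BL/6 mouse hearts, which the study's methods took from the atria. By the labels of all samples, the growth medium held 40 ng/ml of basic fibroblast growth factor (less in the study's methods). The control was CMPs at day 0, labelled as untreated. The other cells carried OSKM (Oct4, Sox2, Klf4 and c-Myc) from Sendai virus and are called OSKM-CMPs, with RNA at day 4, day 6 and day 8. Each condition was measured on 1 single-colour array, so the differences have no replicate check and no test was made.

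The methods put the virus on the cells before day 0 and then changed the growth medium to a reprogramming medium. No untreated cells were put on an array after day 0, so on the arrays the factors, the medium and the time in culture cannot be told apart. By quantitative RT-PCR the study also followed untreated CMPs at later days. It reports that Gata4 and Tbx5 increased in those cells and were not expressed in OSKM-CMPs. In RNA from a whole culture, fewer cells of a type and less RNA per cell cannot be told apart either. All 3 comparisons share the control array.

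The epicardium is the mesothelial sheet that covers the heart. During development some of its cells leave the sheet and enter the heart wall, where they give rise to fibroblasts and mural cells. Wt1, Tbx18 and Tcf21 encode transcription factors that are used to mark the epicardium and the cells that derive from it. Mesothelial cells have both epithelial and mesenchymal features: they make the keratins of simple epithelia, the surface protein mesothelin (Msln) and some uroplakins, which are membrane proteins best known from the bladder lining.

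Each probe of the array is a 60-base stretch of a transcript, and 10 probes stood for the 9 genes. Krt8 had 2 probes, Upk1b had 1 probe that was spotted 10 times, and the others had 1 probe in 1 spot. By the array files, on the mm9 build, the probes lie at chr2:105013656-105013715 on the plus strand for Wt1, chr9:87599514-87599573 on the minus strand for Tbx18 and chr10:22537563-22537622 on the minus strand for Tcf21. Those of the uroplakins lie at chr5:136520522-136520581 on the plus strand for Upk3b and chr16:38773859-38773918 on the minus strand for Upk1b, and that of Msln at chr17:25885569-25885628 on the minus strand. The Krt8 probes lie at chr15:101827138-101827197 and chr15:101828827-101828886, both on the minus strand. The Krt18 probe lies at chr15:101862341-101862400 on the plus strand, 33455 bases from the nearer Krt8 probe, and the Krt19 probe at chr11:100002392-100002451 on the minus strand. Exon and UTR annotation of that build was not used here. The probes of the transcription factor with the largest measured decrease and of the 2 keratins that were higher on every OSKM array are shown, written as in the array files from 5′ to 3′, with no part in capitals (for Krt8, the probe at chr15:101828827-101828886).
Tcf21: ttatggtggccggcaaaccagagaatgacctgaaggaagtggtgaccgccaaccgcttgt
Krt8: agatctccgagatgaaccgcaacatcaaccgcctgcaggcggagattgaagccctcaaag
Krt19: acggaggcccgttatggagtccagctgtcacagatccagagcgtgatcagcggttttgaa

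A signal here is the processed Cy3 intensity of a probe after background subtraction, and "measured" means that it was well above background by the flag of the scanner software. A change is the difference in log2 signal from the control after the 75th percentile of each array had been subtracted; its error is 1 SD from the software's error model, which covers neither cultures nor RNA preparation. The control array and each OSKM array measured 8 of the 9 genes, but not the same 8. Krt8 was not well above background in the control, and Wt1 was not well above background at day 4, day 6 or day 8, so each of these passed the filter through one side of the comparison alone.

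At day 4, 4 of the 9 genes were at least 2-fold lower than in the control (Wt1, Tbx18, Tcf21 and Upk3b) and 4 were at least 2-fold higher (Msln, Krt8, Krt18 and Krt19). Of all 16659 genes, 9.57% were at least 2-fold lower and 12.1% at least 2-fold higher on that day. At day 6 and at day 8 the lower genes were those same 4, beside 11.5% and 11.7% of all genes, and the higher genes were Msln, Krt8 and Krt19, beside 13% and 14.4% of all genes. Upk1b stayed within 2-fold of the control on each day. Because the set split into lower and higher genes, its median change was small, at -0.18, -0.45 and -0.78 on the log2 scale at day 4, day 6 and day 8, beside -0.01, -0.04 and -0.03 over all genes. The median size of the change, taken without its sign, was 4.16, 4.31 and 3.10 in the 9 genes and 0.41, 0.46 and 0.50 over all genes. In the 9 genes it was that of Upk3b on each day. After another background correction with quantile normalization Upk3b was at -2.50, -2.54 and -2.19. With dim values set to the lowest measured signal of the array, Wt1 set that median at day 4 (-3.31) and day 6 (-3.70). The 9 genes were also chosen with earlier results of these data known.

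**Figure D1:**
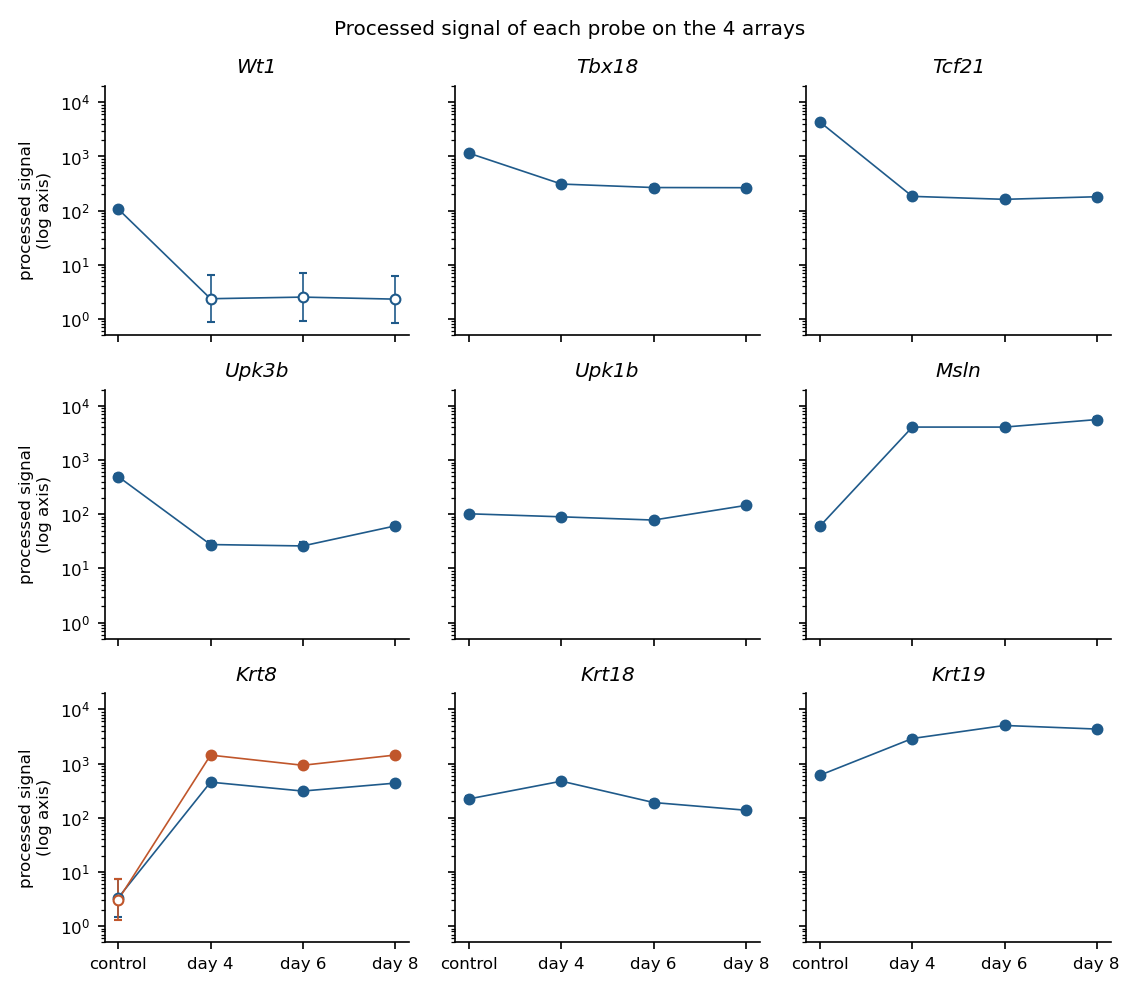
Processed signal (log axis) of each probe on the control, day 4, day 6 and day 8 arrays, with error bars of 1 SD from the scanner software's error model, often smaller than the point; filled points were well above background and open points were not. Krt8 has 2 probes, in 2 colours. Wt1, Tbx18, Tcf21 and Upk3b are highest in the control, Msln, Krt8 and Krt19 are lowest there, and Krt18 is highest at day 4.

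Among the transcription factors, Wt1, which encodes a zinc finger protein needed for the formation of the epicardium, had a signal of 106.5 in the control. It was 2.37, 2.54 and 2.32 at day 4, day 6 and day 8, where the probe was not well above background. Against the lowest measured signal of each array, Wt1 was at least 9.90-fold lower at day 4, at least 13.0-fold lower at day 6 and at least 10.9-fold lower at day 8. Only the control therefore had a measured Wt1 level, and the order of the OSKM arrays is not known.

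Tcf21, a basic helix-loop-helix factor of epicardium-derived fibroblasts, had a signal of 4301 in the control and 183.4, 161.7 and 180.5 at day 4, day 6 and day 8. Its change was -4.55 ± 0.21, -4.80 ± 0.21 and -4.65 ± 0.21, which is 23.4-fold, 27.8-fold and 25.2-fold lower. All 3 OSKM arrays lay close together and far below the control, and the day 8 signal differed from that of day 4 by -0.10 ± 0.21. At day 8, 46 other genes of the array, or 0.276%, were lower by as much or more.

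Tbx18, a T-box factor of the epicardium and of the sinoatrial node, had a signal of 1146 in the control and 309.6, 266.9 and 265.2 at day 4, day 6 and day 8. Its change was -1.88 ± 0.20, -2.16 ± 0.20 and -2.19 ± 0.20, or 3.69-fold, 4.48-fold and 4.56-fold lower. It was thus the least reduced of the lower genes on each array, and 3.79% of all genes were lower by as much at day 8. From day 4 to day 8 it differed by -0.30 ± 0.20.

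The uroplakins did not move together. Upk3b, which is used as a marker of mesothelial cells, had a signal of 492.6 in the control and 27.5, 26.0 and 60.7 at day 4, day 6 and day 8. Its change was -4.16 ± 0.25, -4.31 ± 0.26 and -3.10 ± 0.21, or 17.9-fold, 19.8-fold and 8.58-fold lower. Day 8 stood above day 6 by 1.21 ± 0.27 and above day 4 by 1.06 ± 0.26. After another background correction with quantile normalization the change of Upk3b was -2.50, -2.54 and -2.19. Its OSKM arrays then differed by less than 2-fold. Tbx18 and Tcf21, the other lower genes measured on all arrays, differed by less than 2-fold between any OSKM arrays.

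Upk1b, a tetraspanin that pairs with other uroplakins, had a signal of 101.8 in the control and 89.5, 78.0 and 145.4 at day 4, day 6 and day 8. Its change was -0.18 ± 0.07, -0.45 ± 0.07 and 0.44 ± 0.07. The 10 spots show the spread within an array: they ran from 94.4 to 116.4 in the control, from 82.7 to 99.3 at day 4, from 71.0 to 85.1 at day 6 and from 125.1 to 154.6 at day 8. On the scaled log2 values the spots of day 8 did not overlap those of the control, and neither did those of day 6, while day 4 overlapped it. These spots share 1 RNA preparation, and the day 8 change was 0.16 after another background correction with quantile normalization.

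Of the other uroplakins, Upk2 and Upk3a were not well above background on any array. Both that were measured were higher: Upk1a, the relative of Upk1b in the bladder plaque, by 1.25, 1.42 and 1.20, and Upk3bl, an Upk3b-like gene, by 2.03, 1.97 and 2.74 at day 4, day 6 and day 8. Upk3bl and Upk3b therefore lay on opposite sides of the control on every array. The median change of these 2 genes was 1.64 at day 4 and 1.97 at day 8. After another background correction with quantile normalization it was 0.69 and 0.83, and neither gene was past 2-fold at day 4 or day 6.

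Msln, which encodes the surface glycoprotein mesothelin, had a signal of 60.7 in the control and 4061, 4060 and 5586 at day 4, day 6 and day 8. Its change was 6.07 ± 0.21, 6.00 ± 0.21 and 6.45 ± 0.21, which is 67.1-fold, 64.1-fold and 87.2-fold higher. Msln was measured on all 4 arrays, so these are folds and not bounds. At day 4, 40 other genes (0.24%) were higher by as much, and at day 8, 73 (0.438%). Day 4 and day 6 were alike within the error (-0.07 ± 0.20), and day 8 stood above day 6 by 0.44 ± 0.20.

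**Figure D2:**
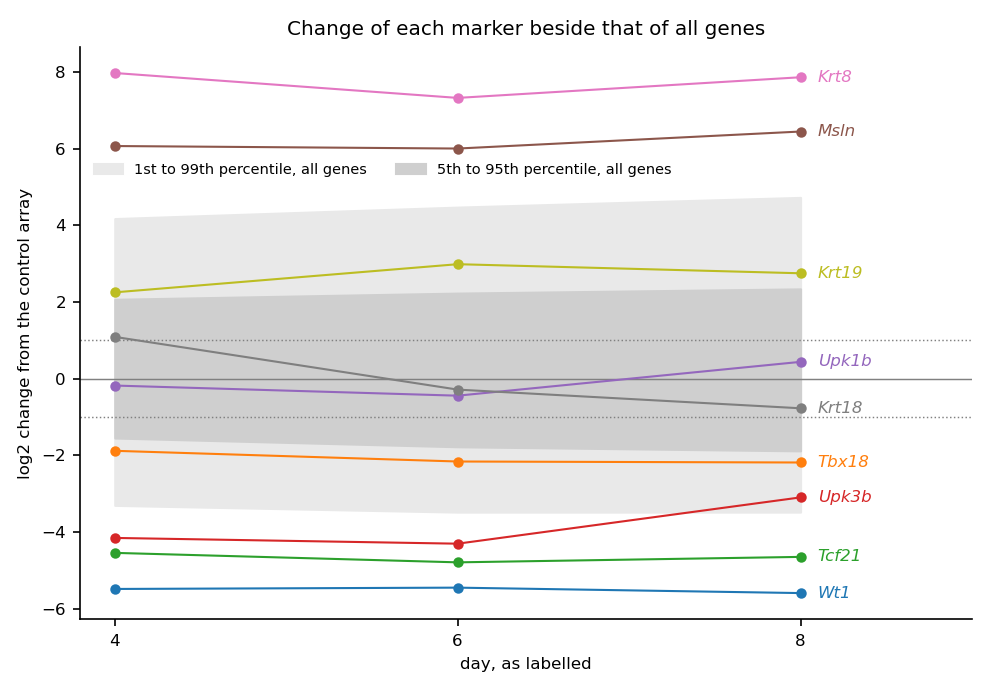
Log2 change from the control array (vertical axis) of the 9 genes at day 4, day 6 and day 8, on bands that hold the middle 90% and 98% of all 16659 genes; dotted lines mark 2-fold. Values of Wt1 and Krt8 rest on an array where they were not well above background. Msln and Krt8 lie above the outer band and Wt1 and Tcf21 below it on all 3 days, while Upk1b and Krt18 lie inside the inner band.

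The keratins differed from one another. Krt8 encodes the type II keratin and Krt18 the type I keratin of simple epithelia, and the 2 proteins pair to build the filament. Krt8 had signals of 3.36 and 3.09 in the control for the probes at chr15:101828827-101828886 and chr15:101827138-101827197, neither well above background. The first probe had signals of 454.6, 311.4 and 435.9 at day 4, day 6 and day 8, and the second 1435, 931.9 and 1437. Against the lowest measured signal of the control array, the first was at least 47.4-fold, 31.0-fold and 42.9-fold higher and the second at least 149.6-fold, 92.8-fold and 142-fold higher. Both probes were lower at day 6 than at day 4, by -0.61 ± 0.20 and -0.69 ± 0.20.

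Krt18 had a signal of 223.5 in the control and 474.2, 191.2 and 137.9 at day 4, day 6 and day 8. Its change was 1.09 ± 0.20, -0.29 ± 0.21 and -0.78 ± 0.21. Day 4 thus stood alone above the control, and day 8 stood below day 4 by -1.86 ± 0.21. The day 4 value was no longer 2-fold after another background correction with quantile normalization (0.86) or with the array median as the scale (0.94), and with the latter the day 8 value was past 2-fold in the other direction (-1.04). Krt18 was present in the control without measured Krt8, and was lower than in the control at day 8, when both Krt8 probes were far above their control signals.

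Krt19, the smallest type I keratin, had a signal of 612.6 in the control and 2907, 5062 and 4344 at day 4, day 6 and day 8. Its change was 2.25 ± 0.20, 2.98 ± 0.20 and 2.75 ± 0.20, or 4.76-fold, 7.91-fold and 6.72-fold higher. The control was the lowest array and day 6 the highest, and the step from day 6 to day 8 was -0.24 ± 0.20. At day 8, 3.69% of all genes were higher by as much.

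Krt8 and Krt18 are neighbours on chromosome 15, and their promoters are shown together with that of Tcf21, the one of the 9 with the largest measured decrease. RefSeq promoter windows on GRCm38.p6 were at hand for 5 of the 9 genes (Tbx18, Tcf21, Upk3b, Krt8 and Krt18). The 250 bases before the annotated start are printed from 5′ to 3′ on the strand of the gene, at chr10:22820144-22820393 for Tcf21 and chr15:102004343-102004592 for Krt8, both on the minus strand, and chr15:102027966-102028215 on the plus strand for Krt18. Capitals mark CACCC or its reverse complement GGGTG, letters that Krüppel-like factors such as Klf4 can bind.
Tcf21: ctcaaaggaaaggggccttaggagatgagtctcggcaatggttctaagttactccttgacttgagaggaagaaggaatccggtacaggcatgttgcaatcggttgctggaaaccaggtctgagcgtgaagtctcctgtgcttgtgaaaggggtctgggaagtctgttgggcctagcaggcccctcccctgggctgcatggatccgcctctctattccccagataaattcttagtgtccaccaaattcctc
Krt8: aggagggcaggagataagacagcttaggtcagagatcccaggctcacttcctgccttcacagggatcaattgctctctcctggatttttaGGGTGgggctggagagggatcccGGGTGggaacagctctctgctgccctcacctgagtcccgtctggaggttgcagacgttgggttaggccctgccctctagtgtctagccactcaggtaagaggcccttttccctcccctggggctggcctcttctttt
Krt18: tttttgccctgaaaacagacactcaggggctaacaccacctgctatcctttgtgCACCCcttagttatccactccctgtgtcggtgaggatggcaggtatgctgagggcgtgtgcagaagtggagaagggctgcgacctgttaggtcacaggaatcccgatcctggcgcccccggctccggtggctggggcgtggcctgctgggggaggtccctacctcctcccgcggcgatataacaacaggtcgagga

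In the whole window, which reaches 50 bases past the start, CACCC or GGGTG was found in 4 of the 5 genes, beside 57.5% of the 32851 windows of the table. Krt8 held it 160 and 137 bases before the start, Upk3b 86 and 73 bases before it, Krt18 196 bases before it and a short way past it, and Tbx18 218 bases before it. Lower and higher genes alike held these letters. The E-box CACGTG, which Myc and Max can bind and which reads the same on both strands, was in none of the 5 windows and in 7.15% of all. GGGCGG or CCGCCC was also in none, beside 35.7% of all, and GGAATG or CATTCC, letters of TEAD factors, was in that of Upk3b, beside 14.7% of all. A match of letters is a description and says nothing of binding.

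Of 40 other genes used as epicardial or mesothelial markers, 35 were measured on at least 1 array. They split as the 9 genes did: 11 were at least 2-fold higher and 15 at least 2-fold lower at day 4, 10 and 15 at day 6, and 10 and 14 at day 8, with median changes of -0.66, -0.56 and -0.60 beside -0.01, -0.04 and -0.03 over all genes. After another background correction with quantile normalization 8 were higher and 11 lower at day 8. The largest measured decreases were in transcription factors of the heart. Tbx20 changed by -5.12, -5.53 and -5.67, Gata4 by -4.17, -4.85 and -5.02, and Tbx5 by -3.02, -3.52 and -3.29. The largest increases were in Sema3c, a secreted guidance protein (2.13, 3.66 and 4.52), C3, the central complement component (2.68, 3.93 and 4.11), and Podxl, a sialomucin of podocytes and mesothelium (3.29, 3.18 and 3.55).

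The following genes of that list were chosen after their values were seen. Lrrn4 and Cfi were measured in the control only, as Wt1 was: Lrrn4, a mesothelial leucine-rich repeat protein, was at least 5.4-fold lower at day 8, and Cfi, complement factor I, at least 41.9-fold lower. Bnc1, a zinc finger gene of mesothelium, was also measured in the control only, but its signal there was 16.3, and the bound at day 8 was 1.7-fold. Muc16, Calb2 and Itln1, further mesothelial markers, and also Pkhd1l1 and Chst4, were not well above background on any array.

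**Figure D3:**
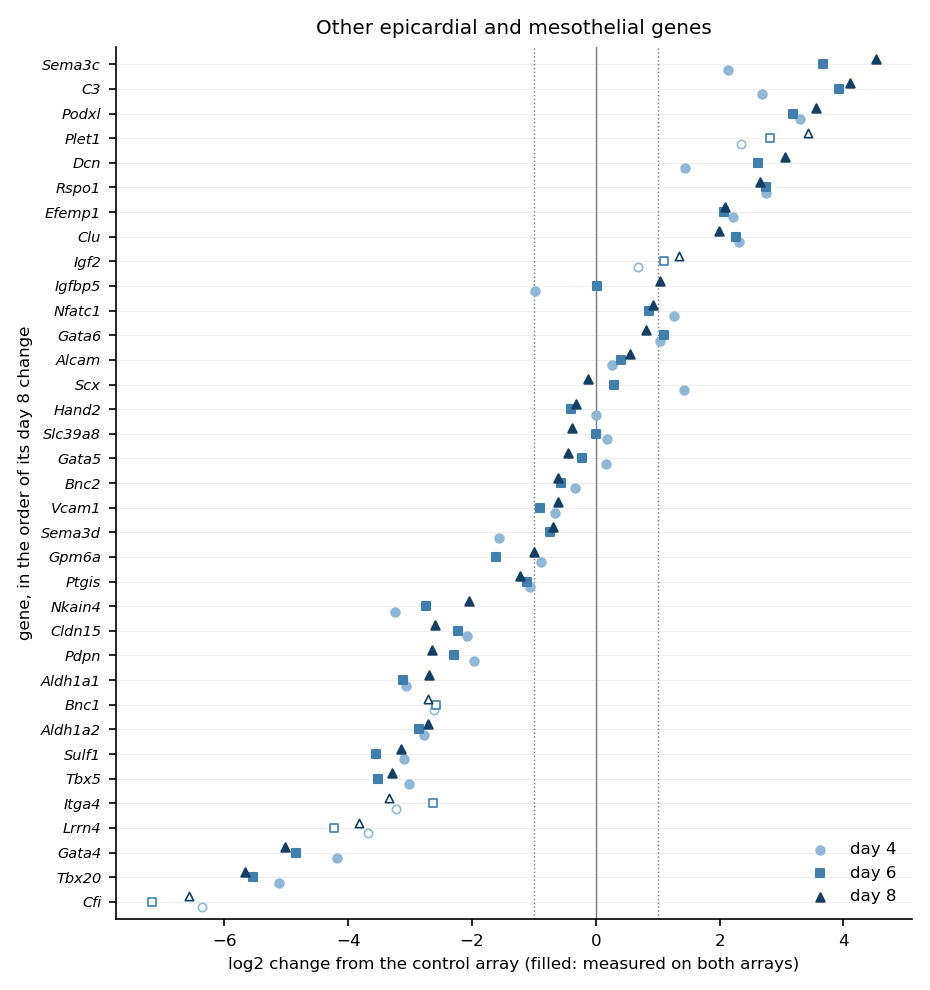
Log2 change from the control array (horizontal axis) of 35 other epicardial and mesothelial genes, in the order of their day 8 change, at day 4 (circles), day 6 (squares) and day 8 (triangles); filled symbols were well above background on both arrays and dotted lines mark 2-fold. The genes spread to both sides, from Cfi at the bottom to Sema3c at the top.

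Retinoic acid made by the epicardium acts on the growing heart wall, and its synthesis enzymes mark the layer. All 3 retinaldehyde dehydrogenase genes were lower on each OSKM array: Aldh1a2, the main enzyme of the embryonic epicardium, by -2.77, -2.85 and -2.71, Aldh1a1 by -3.06, -3.11 and -2.70, and Aldh1a3 by -4.85, -4.35 and -4.59 at day 4, day 6 and day 8. Rdh10, which makes the retinaldehyde that they use and was named after its values were seen, changed by 0.50, 1.03 and 1.06. Of 18 measured genes of the retinoic acid pathway, 6 were at least 2-fold higher and 4 at least 2-fold lower at day 8. Crabp2, a carrier of retinoic acid, was higher by 3.31, 3.22 and 3.44. Rbp4 was not measured in the control and was named after its values were seen. It was at least 10.4-fold, 108.5-fold and 691.4-fold higher at day 4, day 6 and day 8. Rarres2, which encodes the adipokine chemerin, was higher by 0.75, 2.20 and 3.28, and Rarres1 by 1.02, 1.31 and 1.75. The median over the pathway was 0.22, 0.18 and 0.12, and the day 8 median was -0.15 when the array median was the scale. Relative to the median of all genes, the day 8 value was 0.15 on both scales.

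Of 14 measured partners and regulators of Wt1, 1 was at least 2-fold higher and 6 at least 2-fold lower at day 8, with a median of -0.36. The largest decreases were in Fhl2, a LIM protein (-2.34, -1.60 and -1.62), Basp1, a corepressor that binds Wt1 (-0.54, -1.35 and -1.60), and Tead4, a partner of Yap (-0.22, -0.89 and -1.36). After another background correction with quantile normalization 0 of the Wt1 list were higher and 2 lower at day 8, with a median of -0.17, and Tead4 was at -0.63. Of 21 measured partners and relatives of Tcf21 and Tbx18, 4 were higher and 9 lower by that measure at day 8, with a median of -0.16 that was 0.03 after quantile normalization; with the other background correction as well, 3 were higher and 6 lower. Gata4 is in this list too. Nkx2-5, a homeobox factor of the heart, changed by -2.71, -3.15 and -3.03 and Id3, an inhibitor of helix-loop-helix factors, by -1.78, -1.40 and -1.81. The T-box genes went both ways, with Tbx15 at 1.62, 1.71 and 1.62 and Tbx3 at 0.83, 1.32 and 1.31 where Tbx18 was lower.

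Other genes of simple epithelia were set beside Krt8, Krt18 and Krt19. Of 33, 25 were measured, 13 of them in the control and 24 at day 8. At day 4 and at day 6, 12 were at least 2-fold higher and 2 lower, and at day 8, 13 were higher and 2 lower. Genes with no measured level in the control can pass the filter through the OSKM arrays alone. Krt7, counted as higher on each day, was well above background at day 6 alone. With dim values at their bound, 11, 9 and 12 genes of the list were higher at day 4, day 6 and day 8. The median change was 0.62, 0.75 and 1.09, and 0.87 at day 8 with dim values at their bound. After another background correction with quantile normalization, 6, 4 and 7 were higher at day 4, day 6 and day 8, and the median was 0.30, 0.20 and 0.24. Of those measured on all arrays, Perp, a desmosomal membrane protein, was higher by 4.15, 4.07 and 4.45, Pkp2, a desmosomal plaque protein, by 2.07, 1.53 and 1.74, and St14, the protease matriptase, by 1.53, 1.65 and 1.31. Jup, plakoglobin, was lower by -2.35, -1.97 and -1.98, and Esrp2, an epithelial splicing factor, by -1.39, -1.49 and -1.53. Over the other scalings the day 8 change came down to 0.55 for St14, -0.93 for Jup and -0.72 for Esrp2, all under 2-fold.

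Several genes of this list, chosen after their values were seen, had the pattern of Krt8, with no measured level in the control. Against the lowest measured signal there, Krt20 was at least 137.4-fold higher at day 8, Dsp, the desmosomal linker desmoplakin, at least 89.0-fold, Cdh1, E-cadherin, at least 11.5-fold, and Cgn, the tight junction protein cingulin, at least 7.6-fold. Epcam, Ocln, Grhl2, Ovol1 and Elf3, which also mark epithelia, were not well above background on any array. Of the genes of mesenchymal filaments and their linkers, Eppk1, which binds keratin filaments, was higher by 3.59, 3.66 and 3.92, Nes was lower by -0.84, -1.45 and -1.70, Lmna by -0.57, -0.92 and -1.28 and Lmnb1 by -1.25, -2.02 and -2.17. Vim, the mesenchymal vimentin, which was named after its values were seen, changed by -0.19, -0.61 and -0.68. At day 8, 1 of the 11 genes of this list was at least 2-fold higher and 3 lower, with a median of -0.32 that was 0.02 after the other background correction.

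**Figure D4:**
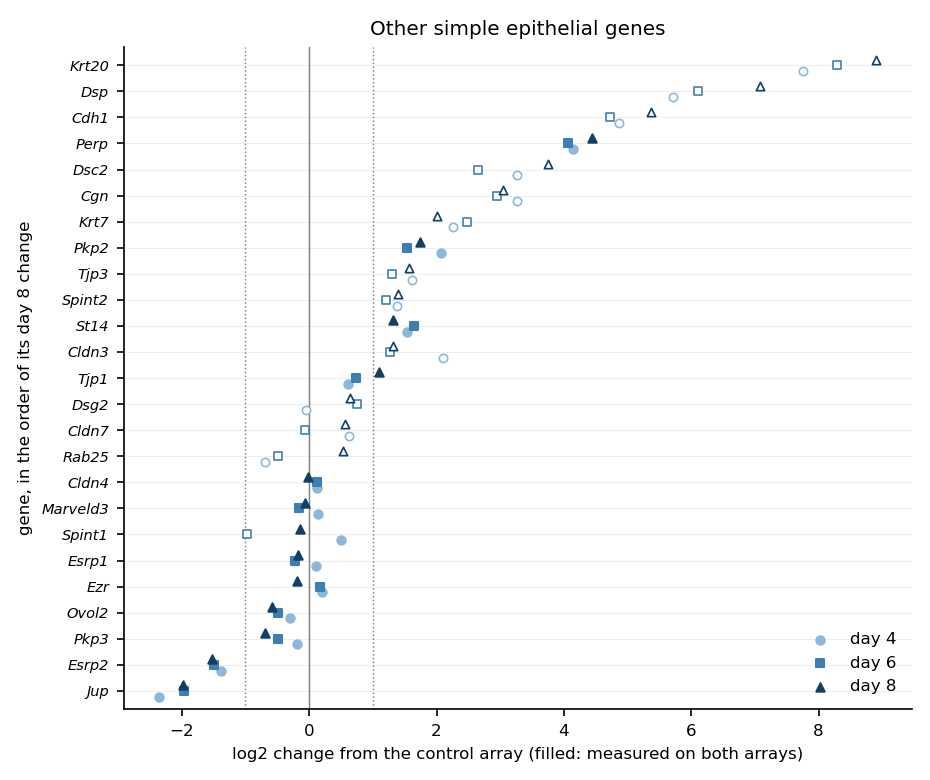
Log2 change from the control array (horizontal axis) of 25 other simple epithelial genes, in the order of their day 8 change, at day 4 (circles), day 6 (squares) and day 8 (triangles); filled symbols were well above background on both arrays and dotted lines mark 2-fold. Of the 5 genes with the largest increases, Perp alone has filled symbols, and Jup and Esrp2 lie at the lower end.

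Of 50 other keratin genes named on the array, a list added after the values were seen, 32 were measured on at least 1 array. Krt7, Krt20 and Krt23 are also in the list of simple epithelial genes, so the 2 lists are not separate. Of the 32, 18 were measured in the control, and the others can pass the filter through the OSKM arrays alone. Among the 32, 15 were at least 2-fold higher and 1 at least 2-fold lower at day 4, 14 and 2 at day 6, and 16 and 0 at day 8. With dim values at their bound, 13, 10 and 11 were higher. After another background correction with quantile normalization the higher genes numbered 7, 8 and 8, and the day 8 median was 0.15. The largest increases among those measured in the control were in Krt16 (4.91, 4.54 and 4.95) and Krt14 (5.39, 4.53 and 4.92), keratins of stratified epithelia, followed by Krt42 (2.39, 2.82 and 2.83). Krt5, the usual partner of Krt14, was named after its values were seen and changed by -0.81, -0.35 and 0.24. Krt90 and Krt17, likewise named later and not measured in the control, were at least 202.5-fold and 57.5-fold higher at day 8. With dim values at their bound the day 8 median of the list was 0.62 in place of 0.94. Keratin genes share sequence, and cross-hybridisation of their probes was not tested.

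**Figure D5:**
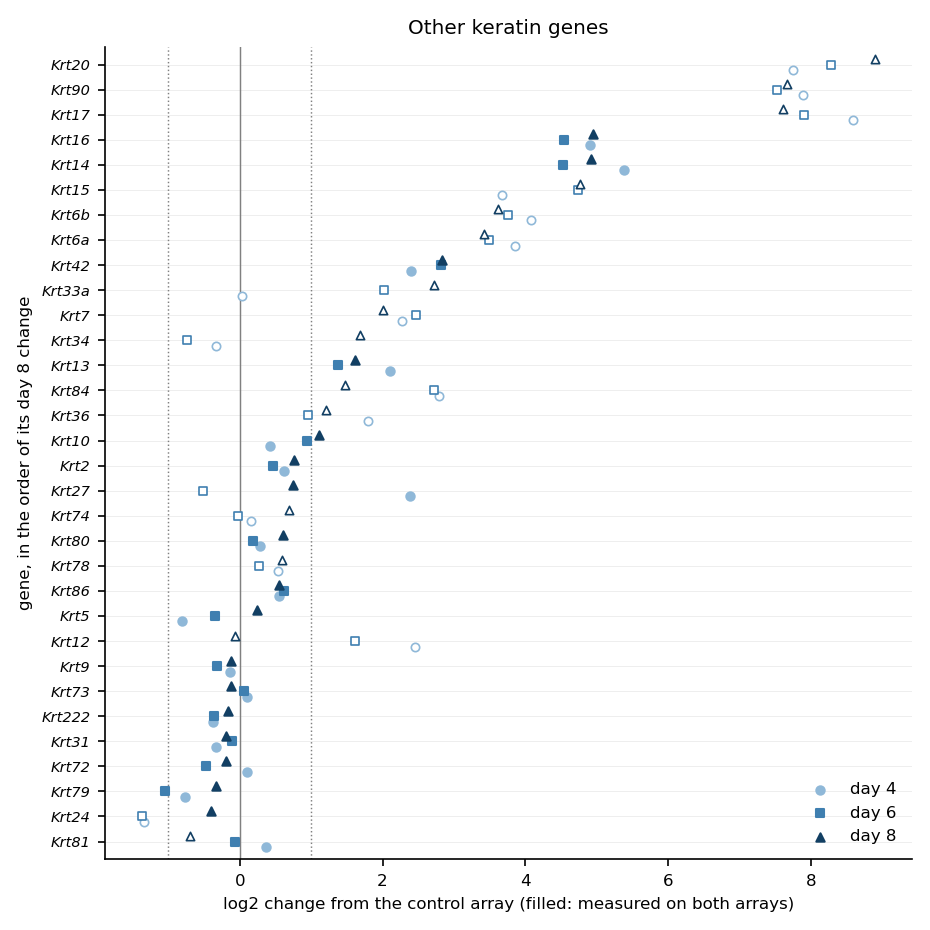
Log2 change from the control array (horizontal axis) of 32 other keratin genes, in the order of their day 8 change, at day 4 (circles), day 6 (squares) and day 8 (triangles); filled symbols were well above background on both arrays and dotted lines mark 2-fold. Krt16, Krt14 and Krt42 are the highest with filled symbols, and 12 of the other 29 keratins stay within 2-fold on all 3 days.

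The genes whose course was most like that of each marker were taken by the Euclidean distance over the 3 changes, among 13760 other genes measured on all 4 arrays. For Tcf21 these were Ptger4, Ddah1 and Trpm6, at distances of 0.28, 0.37 and 0.41. For Tbx18 they were Acvrl1, Rab3ip and Tmlhe (0.12, 0.14 and 0.17), and those given for Upk3b are Sh3tc2 and Prrt4 (0.64 and 0.69). For Msln they were Adh7, Tesc and Cnfn (0.54, 0.61 and 0.67), for Krt18, Tnni1, Egfl7 and Cxadr (0.16, 0.20 and 0.27), for Krt19, Gm4841, Prss12 and the keratin Krt42 (0.15, 0.19 and 0.23), and for Upk1b, Lrrc10, Gm9959 and Spx (0.06, 0.06 and 0.08). The nearest of the other 8 markers lay at distances from 1.49 for Tcf21 to 4.80 for Krt19. The nearest of 8 genes tends to lie farther off than the nearest of 13760, so these distances cannot be compared. The 8 also include Wt1 and Krt8, whose changes rest on arrays where they were not well above background. Near 0 many genes have small changes, so a short distance there sets a gene apart less than it does for Msln or Tcf21.

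Lists of markers of other cells were read on the same arrays, and not every list moved. Of all genes, 14.4% were at least 2-fold higher and 11.7% at least 2-fold lower at day 8. Of 10 mesenchymal progenitor genes, all were measured on every array. Ly6a, which encodes Sca-1, was higher by 2.03, 2.31 and 2.69 and Nt5e by 1.77, 2.16 and 2.10, while Thy1 was lower by -1.83, -1.98 and -1.78, Itgb1 by -1.05, -1.31 and -1.35 and Eng by -1.23, -1.24 and -1.19; the median of the list at day 8 was -0.45. Of 10 cardiac fibroblast genes, 4 were at least 2-fold higher and 0 lower at day 8, and a median of 0.62, with Lum (4.83) and Dcn (3.06) first, where the fibroblast factor Tcf21 was lower. Of 10 endothelial genes, 0 were higher and 7 lower at day 8, with a median of -2.40, or -2.09 with dim values at their bound. After another background correction with quantile normalization 3 were lower and the median was -0.77. Cdh5, Emcn and Tie1, named after their values were seen, were measured in the control only, as Wt1 was. They were at least 11.9-fold, 5.2-fold and 2.1-fold lower at day 8. Flt1 changed by -2.69, Tek by -2.70 and Esam by -2.10. Pecam1 (0.10), Kdr (-0.27) and Vwf (0.78), also named after their values were seen, stayed within 2-fold at day 8. All 10 adipocyte genes were at least 2-fold higher at day 8, with a median of 7.03, or 6.52 and 9 genes with dim values at their bound, among them Fabp4 (5.78), Pparg (3.83) and Cebpa (3.15), and the summed signal of that list was 2007 in the control and 18333, 70944 and 161175 at day 4, day 6 and day 8. Of 9 measured leukocyte genes 2 were higher and 1 lower at day 8, with a median of 0.02 and Coro1a at 1.12, and of 7 measured cardiomyocyte genes 3 were higher and 1 lower, with Tnnt2 at -1.60 and a median of 0.91. With dim values at their bound 1 cardiomyocyte gene was higher and the median was 0.50, and after the other background correction 0 were higher and the median was 0.06; for the leukocyte genes that correction gave 0 higher and 0 lower. Over the other scalings the day 8 change came down to -0.83 for Esam and 0.41 for Coro1a. The part of any of these cells in the values of the 9 markers was not tested.

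Each array held 55681 probes, of which 56.6% to 59.6% were well above background, and no spot was saturated. The mouse probes of Pou5f1 and Sox2 were not well above background on any array, that of Klf4 was lower by -0.92 to -0.78 and that of Myc by -3.08 to -2.65 on the OSKM arrays. Whether these probes read the RNA of the virus was not tested.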

How the data were processed

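All 4 conditions of mouse CMPs were measured, each on 1 array; no group had a replicate. The authors' deposited scanner files hold, for each spot, a background-subtracted Cy3 intensity, its error and flags (other values), written by Feature Extraction 10.7.3.1 by the file header (9.5.3 in the submitters' processing notes). The deposited table, made by the authors in GeneSpring, holds log2 intensities shifted by a constant per array. All arrays were on the same slide in 1 scan, with 250 ng of labelled RNA each by the labels.

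From the intensities, 3671 control spots and 87 to 106 outlier spots per array were left out, each of 55681 probes took the mean log2 signal of its spots, and values were scaled by subtracting the array's own 75th percentile (a signal of 388.5 to 411.1). Dim probes were filtered out, leaving the 35547 (63.8%) that passed the background flag on 1 array or more. Probes were named through RefSeq (26762 by accession, 3819 by symbol, 639 by synonym; 24461 unnamed), and several probes of a gene were averaged. A gene counted as measured where all of its kept probes were. The number of arrays limits the precision; among probes spotted repeatedly the median SD between spots was 0.063 to 0.068 (log2).

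A probe below background on one side gives a bound: the bright value over the higher of the lowest signal well above background on the dim array and the dim probe's own. A 2-fold threshold marks genes as higher or lower. Genes named are the 9 markers, up to 3 of each list with the largest increase and the largest decrease at day 8 (past 2-fold, measured in the control and at day 8, the same direction on all days), and the 3 of nearest course for each marker measured on all arrays; others are marked as chosen after their values were seen. Of the genes this rule names, 2 are not reported here. The 9 markers and all lists were chosen with earlier results of these data known. Alternatives were quantile normalization with and without normexp background correction (offset 50), the authors' values, scaling by the median of the array, dropping the filter, asking it of all 4 arrays, dim values at the floor, the brightest probe of a gene, and detection by any probe. The averaging of probes and the 2-fold calls were run on simulated data with known changes well past the threshold, which checks the code alone. The other steps were not tested in this way. Python 3.11.15, numpy 2.4.6, pandas 2.3.3, matplotlib 3.10.9, R 4.3.3 and limma 3.58.1 were used.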

Additional observations from a re-analysis of the deposited data

How the results depend on the processing

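No result changed direction under the alternatives run for the 9 markers: over 8 alternatives and 3 days, 169 of 210 single values moved by less than 1 SD of the error model and 41 by more. Many of the 210 could hardly move, so these counts do not measure stability. The authors' values differ by a constant per array, and the changes of filter left each remaining marker value as it was. Dim values at the floor could move Wt1 and Krt8 alone, and the brightest probe Krt8 alone. Of 22 changes past 2-fold, 2 fell below it under an alternative, both of Krt18 at day 4, and 1 value passed it, Krt18 at day 8 with the array median as the scale. That scale moved the median of all genes to -0.15, -0.17 and -0.30 at day 4, day 6 and day 8, and the median of the 9 markers at day 8, which is Krt18, to -1.04; relative to all genes Krt18 was then at -0.74, as in the reported values. It left 1761, 1904 and 1878 genes of the array at least 2-fold higher and 1947, 2288 and 2812 lower on the 3 days, in place of 2009, 2163 and 2392 higher and 1594, 1908 and 1941 lower.

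Normexp correction with quantile normalization, which adds an offset to dim signals, gave 872, 999 and 1069 genes higher and 796, 975 and 1108 lower. With probes well above background on all 4 arrays, which tests fewer genes, 1222, 1368 and 1483 were higher, and Wt1 and Krt8 had no value. Bounds replace folds for Wt1 and Krt8 because their dim signals lie at background: under normexp Wt1 was at -1.70, -1.57 and -1.64. Detection by any probe gave the counts of the report. No paired analysis was possible because there was 1 array per condition.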
